A study of Mus musculus with 6 samples.

Results

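The clustered H3K9me3 regions of chromosomes 12 and 13 are groups of enriched regions that lay close together in the thymocytes of wild-type mice, which the labels call T cell progenitors. They were chosen from the wild-type list by position alone: regions with gaps of at most 100 kb were chained, and chains of 3 or more were kept. This gave 31 chains, 13 on chromosome 12 and 18 on chromosome 13, with 322 of the 3748 regions of the wild-type list. Of the 605 regions of the knockout list, 28 overlapped the span of a chain by at least 1 base and complete the set of 350 regions, out of 4353 in both lists. The narrowest gap just outside the limit measured 105 kb and the widest just inside it 98.6 kb, both on chromosome 12. Chains are named here by chromosome and a letter in order of position, so that 12A is the first chain of chromosome 12.

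H3K9me3, trimethylation of lysine 9 of histone H3, was mapped by chromatin immunoprecipitation and sequencing. Of the 6 samples, 2 are used: total thymocytes from wild-type animals and from a T cell-specific Kap1 knockout, both on the C57BL/6 / sv129sv background. The labels do not say which Cre line made the deletion, how old the mice were or whether animals were pooled. Samples of KAP1 immunoprecipitation and of input chromatin were not analysed here, so the loss of KAP1 was not checked, and the region lists hold no marker of the cell type. Each genotype had 1 library, and each list gives positions only. The read depth is therefore unknown, no value has a replicate error, and no comparison below tests the genotypes. A missing call says only that no region passed the calling threshold there, since weaker signal is not listed.

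KAP1, the protein encoded by Trim28, is a corepressor. KRAB zinc finger proteins bind particular DNA sequences, many of them in transposable elements, and bring KAP1 there. KAP1 in turn recruits the histone methyltransferase SETDB1, which deposits H3K9me3, and HP1 proteins bind that mark and help to keep chromatin compact. Genes of the KRAB zinc finger family stand in tandem clusters on several mouse chromosomes, and the middle part of chromosome 13 is known for such clusters. Which regions fall on which genes was not analysed here.

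Most of the clustered regions were called in wild type alone. Of the 322 wild-type regions in the chains, 33 were overlapped by a knockout region, called a partner below, which is 10.2% (95% Wilson interval 7.39 to 14.0%, counting error only); over the whole wild-type list the share was 17.5%. It was 3.73% when the overlap had to reach 50% of both regions, 19.9% when a knockout region within 10 kb counted, and 34.8% (16 of 46) when only the widest 605 wild-type regions were chained, to equal the knockout list in number. Chromosome 12 had 13 of 135 regions with a partner, or 9.63% (5.71 to 15.8%), and chromosome 13 had 20 of 187, or 10.7% (7.03 to 15.9%). The chromosomes' shares lay within each other's intervals. By length, wild-type regions covered 965 kb of the chains and knockout regions 129 kb, a ratio of 0.134 (0.281 with the widest 605 wild-type regions). By this measure the chromosomes differed, with 0.0798 on chromosome 12 and 0.193 on chromosome 13. Of the 88.5 kb of knockout regions in the chains of chromosome 13, 73.4 kb lay in chain 13C. The higher ratio of chromosome 13 rests on that chain.

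In 19 of the 31 chains no wild-type region had a partner, and in 12 some did. A chain counts as keeping regions when at least 1 of its wild-type regions has a partner. By this rule 38.7% of the chains kept some (23.7 to 56.2%). The share was 50.7% over the chains of the whole genome and 46.0% over those of other autosomes. Where 50% of a region had to be covered, 22.6% of the chains here kept some. On chromosome 12, 6 of 13 chains kept regions, and on chromosome 13, 6 of 18. In 8 of the 12 chains that kept any, the knockout list held a lone region. Chains 12D and 13B held 2 knockout regions each, 12K held 4 and 13C held 12.

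**Figure D1:**
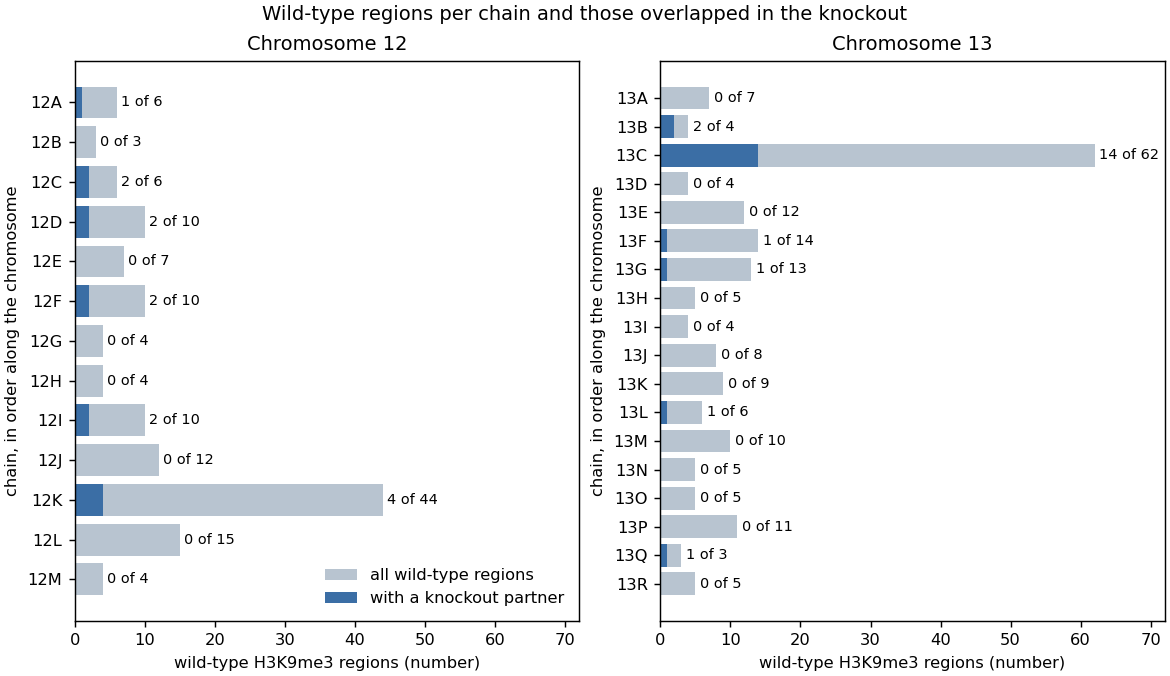
Number of wild-type H3K9me3 regions in each of the 31 chains (pale bars) and number overlapped by a knockout region (dark bars), in order along chromosomes 12 and 13. Chain 13C has 14 of its 62 regions overlapped, 12K has 4 of 44, and 19 chains have 0.

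The chains that kept regions were larger and held wider regions than those that lost them all. The 12 that kept some had a median of 10 wild-type regions (range 3 to 62) and a median covered length of 31.2 kb. The 19 that lost all had a median of 5 regions (range 3 to 15) and 10.7 kb. Their widest regions measured 11.3 kb and 3.22 kb at the median. The ranges overlap: chain 13L kept a region although its 6 wild-type regions covered only 6.16 kb, while chain 12L lost all of 15 regions over 53.5 kb. A chain with more or wider regions offers more bases for an overlap, and that part was not tested.

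The chain with most regions and most covered sequence was 13C, from 12765605 to 13376077 on chromosome 13. It held 62 wild-type regions over 220 kb, or 36.1% of its 610 kb span, and 12 knockout regions over 73.4 kb. In it 14 of 62 wild-type regions (22.6%) had a partner. The knockout regions did not run through the whole chain: 6 wild-type regions lay before the first of them and 23 after the last. The stretch between these limits, which the knockout regions themselves set, held 33 wild-type regions from 12858900 to 13154850, of which 14 had a partner. The median width of these 33 was 4238 bp, and 18 of them reached 3 kb. The 6 regions before had a median of 2660.5 bp, with 3 at 3 kb or more, and the 23 after had a median of 1361 bp, with 3 at 3 kb or more.

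Within 13C, the mark was called over nearly the same bases in both genotypes at a few wide regions and over part of the region at others. The wild-type region from 12869170 to 12882231, 13.1 kb wide, was covered to 98.4% by a knockout region of 13.7 kb. The region from 13074463 to 13087536, also 13.1 kb, was likewise covered to 98.4% by a knockout region of 13.7 kb. These were the widest knockout regions in the chains. Neighbouring wild-type regions from 12971876 to 12976811 and from 12978409 to 12984123 were covered to 98.7% and 99.4% by a knockout region of 12.1 kb that also filled the 1597 bp between them. By contrast, the 12.3 kb region from 13016085 to 13028348 was covered to 45.4% by a knockout region of 5.56 kb. The region from 12904816 to 12911238, 6.42 kb wide, was covered to 30.5% by one of 1.96 kb. The 11.6 kb region from 12927169 to 12938774 was covered to 45.3% by a knockout region of 8.19 kb that also reached the next wild-type region.

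Chain 12K, from 88844852 to 89578588 on chromosome 12, was the other large group and kept less. It held 44 wild-type regions over 172 kb and 4 knockout regions over 16.7 kb. Partners were found for 4 of the 44 regions (9.09%). They were the adjacent regions from 89092629 to 89099024 (6.40 kb, covered to 72.2%) and from 89101414 to 89113707 (12.3 kb, covered to 43.1%), the 1.86 kb region from 89164909 to 89166765 (81.1%), and the 16.2 kb region from 89507374 to 89523527 (26.5%). The knockout regions over the 2 adjacent regions measured 4.95 and 5.30 kb. Together 12K and 13C held 32.9% of the wild-type members, 18 of the 33 with a partner and 16 of the 28 knockout regions. The other 29 chains had a partner for 15 of 216 regions, or 6.94% (4.25 to 11.1%), against 17.0% (11.0 to 25.3%) in these chains. Without 13C alone, the share over all members was 7.31% and the ratio of knockout to wild-type bases fell to 0.0746.

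**Figure D2:**
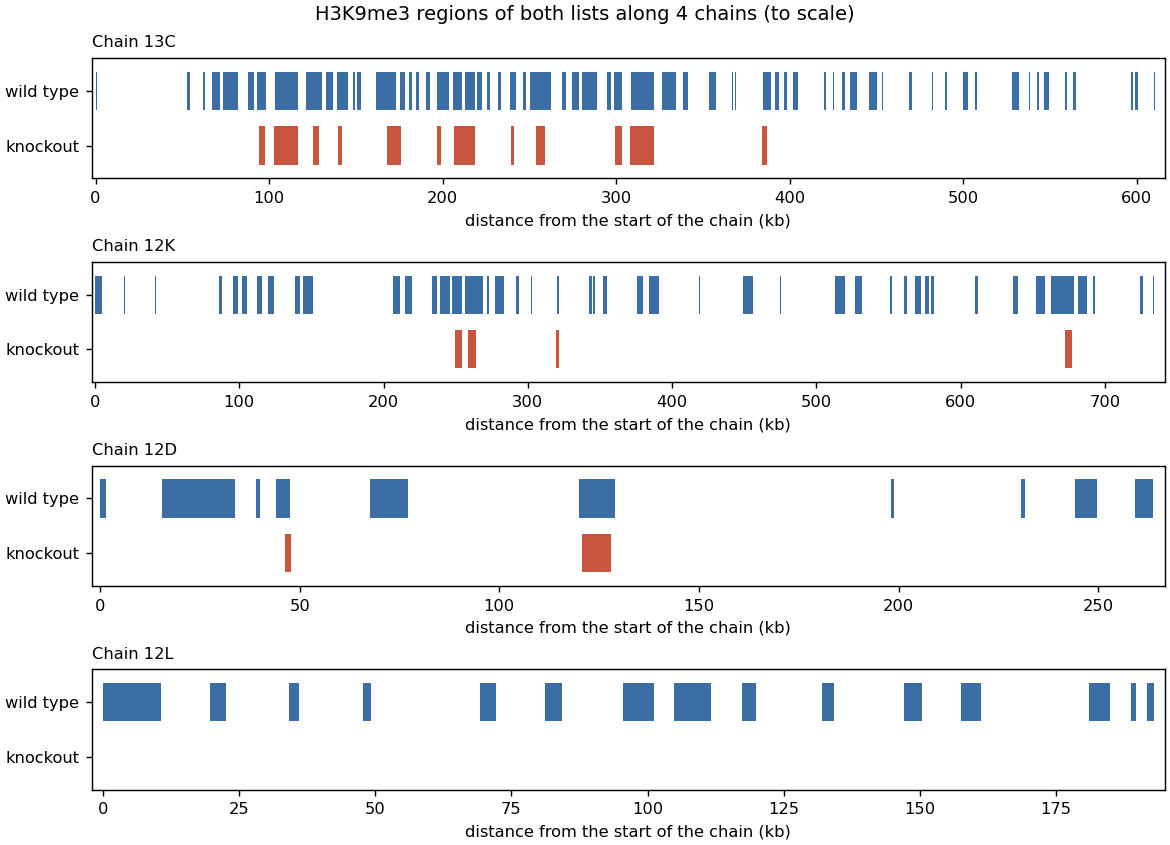
Regions of the wild-type list (upper row) and of the knockout list (lower row) along chains 13C, 12K, 12D and 12L, drawn to scale against the distance from the start of each chain in kb. The 12 knockout regions of 13C leave 6 wild-type regions before them and 23 after, 12K has 4, 12D has 2 and 12L has 0.

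Proximal chromosome 12 held a run of 8 chains, 12B to 12I, within 6.55 Mb from 18423156 to 24971637. This grouping, like that of the chromosome 13 chains below, was made after the values were seen. The run had 54 wild-type regions over 231 kb and 5 knockout regions over 23.1 kb, and 8 of the 54 had a partner (14.8%, Wilson 7.70 to 26.6%). Chains 12C, 12D, 12F and 12I kept regions, and 12B, 12E, 12G and 12H kept none. Chain 12D, from 20111584 to 20375425, kept 2 of 10. Its 9.05 kb region from 20231637 to 20240682 was covered to 80.0% by a 7.23 kb knockout region that lay wholly inside it. Its 18.1 kb region from 20127197 to 20145328, the widest wild-type member of all 31 chains, had no partner, and the nearest knockout region was 12.7 kb away. Further towards the centromere, chain 12A (3011100 to 3111038) had 6 wild-type regions over 25.9 kb and a lone knockout region of 632 bp that shared 357 bp with a wild-type region.

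In chains 12C, 12F and 12I the knockout region lay mostly between wild-type regions. Each of these chains held 1 knockout region that touched 2 neighbouring wild-type regions, so that both count as having a partner. In 12C (19526413 to 19598351) the knockout region from 19576241 to 19580828 was 4588 bp wide and spanned a wild-type gap of 2839 bp, which made up 61.9% of it. In 12F (23076518 to 23360909) a knockout region of 4963 bp from 23340357 to 23345319 spanned a gap of 2831 bp, or 57.0% of it. In 12I (24670641 to 24971637) a knockout region of 4906 bp from 24686370 to 24691275 spanned a gap of 2874 bp, or 58.6% of it. The central part of each of these knockout regions was thus called in the knockout list alone. Together such bases came to 8.54 kb in the 3 chains, out of 19.6 kb of knockout sequence outside wild-type regions over all 28 knockout members.

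Chain 13B, a small group on proximal chromosome 13 from 3371824 to 3499093, kept most of its covered length. It had 4 wild-type regions over 6.78 kb and 2 knockout regions over 6.32 kb. The 3.47 kb wild-type region that opens the chain was covered to 92.9%, by a knockout region whose start differed by 7 bp. The other knockout region, of 3.09 kb, was 2.49 times as wide as the 1.24 kb wild-type region it covered to 95.2%. The neighbouring chain 13A (3004130 to 3142692) had 7 wild-type regions over 15.8 kb and no knockout region.

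Chains 13F and 13G, from 50199906 to 50461430 and from 50633700 to 50983597, were among the larger groups of chromosome 13 and each kept 1 region. In 13F, 1 of 14 wild-type regions had a partner: the 4.22 kb region from 50357247 to 50361468, covered to 75.9% by a knockout region of 3.90 kb. In 13G, 1 of 13 had a partner, the 7.51 kb region from 50768376 to 50775890. Only 16.2% of that region was covered, by a knockout region of 1.22 kb.

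Over the middle part of chromosome 13, 9 chains lay within 7.52 Mb, from 61180017 to 68697674 (13H to 13P). They held 63 wild-type regions over 97.3 kb, and 1 of them had a partner (1.59%, Wilson 0.281 to 8.46%). That region opened chain 13L (65687270 to 65911675). It was 788 bp wide and lay under a knockout region of 1495 bp whose start differed by 6 bp. The median width in these 9 chains was 1158 bp, 5 of the 63 regions reached 3 kb, and they were thinly spread: wild-type regions covered 2.75 to 22.7% of each span. The largest were 13P (68300418 to 68697674), with 11 regions over 29.3 kb, and 13M (66074338 to 66428665), with 10 regions over 12.5 kb. Neither held a knockout region, and for 13P the nearest knockout region was 2.61 Mb away. Chain 13Q (74665981 to 74738465), further along, kept 1 of 3 regions: its opening region of 2.14 kb was covered to 99.7% by a knockout region of 2.23 kb.

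Several sizeable chains were called in wild type alone. The largest was 12L, from 104973717 to 105166692 on chromosome 12, with 15 wild-type regions over 53.5 kb, or 27.7% of its span. Its widest region measured 10.7 kb, and the nearest knockout region on the chromosome was 15.5 Mb away. Chain 13E (33370635 to 33587553) had 12 regions over 40.4 kb, with the nearest knockout region 7.78 Mb away. Its 8.93 kb region from 33493849 to 33502782 was the widest member of chromosome 13 without a partner. Chain 12J (56198190 to 56371447) had 12 regions over 20.2 kb and its nearest knockout region was 11.8 Mb away. Over the 19 chains without knockout regions, the distance to the nearest one ran from 123 kb for 12H to 26.4 Mb for 12M, with a median of 2.61 Mb.

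The 28 knockout regions in the chains all overlapped a wild-type region, which the rule favours by admitting knockout regions inside dense wild-type spans; over the whole knockout list 91.4% did so. They measured 632 to 13733 bp, with a median of 3748 bp. Among them, 23 paired 1 to 1 with a wild-type region, and 5 touched 2 wild-type regions. In 17 pairs the knockout region was the narrower and in 6 the wider, and its width was a median of 0.775 times that in wild type (range 0.162 to 2.49). The median distance between starts was 834 bp and between ends 713 bp, and both edges lay within 500 bp of each other in 2 of 23 pairs. Of the 33 wild-type regions with a partner, 8 were covered to 90% or more, 15 to 50% or more and 18 to less than 50%, and the lowest cover was 7.29%. Of the wild-type regions of chromosomes 12 and 13 outside the chains, which were narrower, 11 had a partner. All 11 were covered to 50% or more. Such counts are not given here for chains of other chromosomes.

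Outside the chains, chromosomes 12 and 13 had 15 more knockout regions, of which 11 overlapped an unchained wild-type region and 4 overlapped none. Unchained wild-type regions of these chromosomes had a partner in 11 of 140 cases, or 7.86% (4.44 to 13.5%), which overlaps the interval of the chained ones. They were narrower, with a median of 638.5 bp against 1937 bp.

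Wild-type members with a partner were wider than those without. The 33 with a partner ran from 788 to 16965 bp, with a median of 4679 bp. The 155 without a partner in chains that kept other regions had a median of 2235 bp, and the 134 in chains that lost all had a median of 1491 bp. The ranges overlap widely, and wide regions are touched more readily by any other list. Among the 10 widest members 7 had a partner. Of the members of at least 10 kb, 3 of 10 on chromosome 12 had a partner, and 4 of 4 on chromosome 13. All 4 of the latter lay in 13C, and those of 13062 and 13074 bp belong to a recurring arrangement described below. The chromosome 12 regions of this width without a partner lay in 12A, 12C, 12D, 12F, 12I and 12L.

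**Figure D3:**
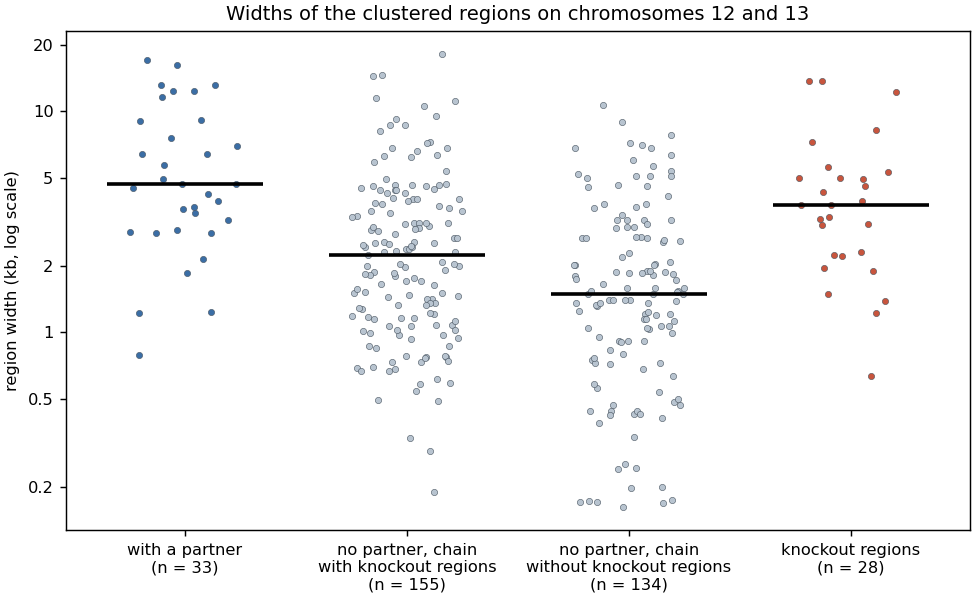
Width in kb (log scale) of every member: wild-type regions with a knockout partner, without a partner in chains that kept others, and in chains that kept none, beside the knockout regions. Points are regions and black lines are medians, which run from 4679 bp with a partner to 2235 and 1491 bp without, and 3748 bp for knockout regions.

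Among the 291 pairs of successive wild-type regions within chains, both had a partner in 11, neither in 241 and only 1 of them in 39. In 5 of the 11 pairs, the partner of both was the same knockout region. Members without a partner lay a median of 172 kb from the nearest knockout region (quartiles 48.4 and 2990 kb). Of these 289 members, 31 were within 10 kb of a knockout region and 90 were more than 1 Mb from one.

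Chains of other autosomes kept a larger share of their regions. On those chromosomes 361 of 1705 chained wild-type regions had a partner, or 21.2% (19.3 to 23.2%), and knockout bases came to 44.2% of wild-type bases, against 10.2% of regions and 13.4% of bases here. The intervals of these shares do not overlap, but regions within a chain are not independent and the difference was not tested over samples. In the share of regions, chains of chromosomes 14 to 19 came close to those of 12 and 13, with 33 of 279 or 11.8% (8.55 to 16.1%). Those of chromosome 7 had 17.1% (13.8 to 20.9%). Knockout bases came to 21.6% of wild-type bases on chromosomes 14 to 19 and to 26.7% on chromosome 7, against 13.4% here. By width the share was lower on chromosomes 12 and 13 in each of 4 classes. Below 1 kb it was 1.37% (1 of 73) against 7.16%, and from 1 to 3 kb 5.71% (8 of 140) against 9.24%. From 3 to 10 kb it was 17.9% (17 of 95) against 30.5%, and at 10 kb or more 50.0% (7 of 14) against 71.9%. Within each class the Wilson intervals overlapped. At the level of whole chains, 46.0% of those on other autosomes kept regions (38.4 to 53.7%), which overlaps the interval here.

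**Figure D4:**
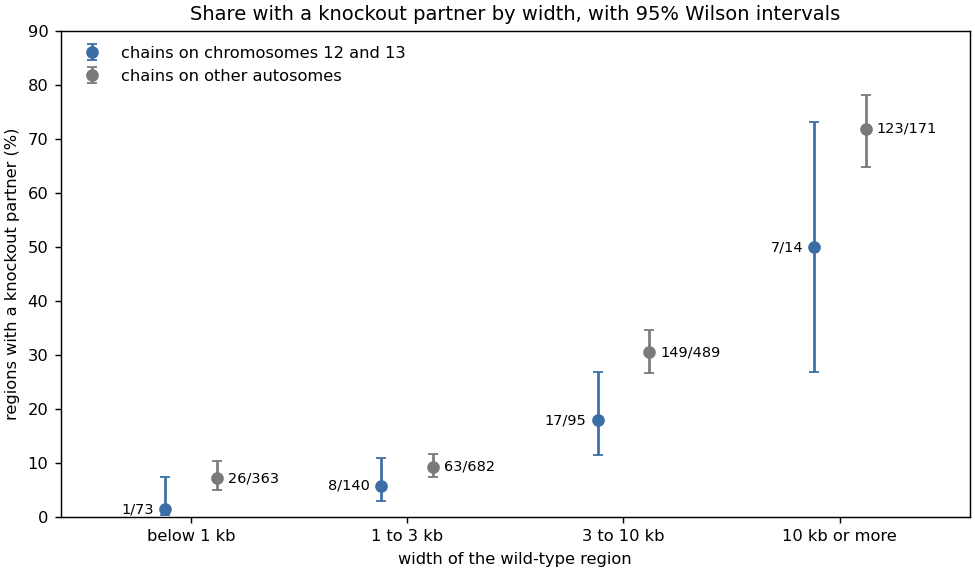
Percentage of chained wild-type regions with a knockout partner in 4 width classes, for chromosomes 12 and 13 and for the other autosomes. Points carry 95% Wilson intervals and counts; the share is lower on chromosomes 12 and 13 in each class, from 1.37% against 7.16% below 1 kb to 50.0% against 71.9% at 10 kb or more, and the intervals overlap.

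Parts of several chains repeated the same order of widths and gaps. Successive wild-type regions were compared with other successive regions of the chains, and counted as recurring when both widths and the gap between them agreed within 50 bp in the same or the reversed order. Of the 291 successive pairs, 9 matches were found within a chromosome, 7 in the same order and 2 reversed, and they involved 30 of the 322 members. No match was found between chromosomes 12 and 13 by the same rule. In 8 of the 9 matches no region of either copy had a partner, and in the other, in chain 13C, all 4 regions had one. Several of these 8 matches were overlapping pairs of the same block in chain 12J, so they are not separate repeats. Taken singly, 241 of the 291 successive pairs had no partner, whereas a match asks this of a pair and its copy. How reads that fit several places were aligned is not given in the sources used here, and its part in these values was not tested.

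The clearest recurrence without knockout regions was in chain 12J. Its first 5 regions, from 56198190 to 56253186, recurred 75.06 kb further on, from 56273250 to 56328250. Widths of 1212, 3222, 468, 1491 and 2660 bp were the same to the base in both copies, and 0 of the 10 regions had a partner. Chains 12G (24367104 to 24394214) and 12H (24535782 to 24562888) resembled each other as wholes: both had 4 regions, their spans were 27111 and 27107 bp, and their starts lay 168.7 kb apart. The opening regions were 1353 bp wide in both, the closing ones 3207 bp, and the second differed, at 7029 and 5995 bp. Neither chain held a knockout region.

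In chain 13C the recurrence of a pair extended to the knockout list, but not to the region that followed it. The wild-type regions of 4679 and 13062 bp that start at 12858900 and 12869170 recurred 205.3 kb further on as regions of 4695 and 13074 bp, with a gap of 5591 bp in both places. The knockout regions over them measured 3740 and 13721 bp in the first place and 3756 and 13733 bp in the other. Their edges lay at the same distances from the wild-type edges: 806 bp after the start and 133 bp before the end for the narrower pair, 871 bp before the start and 212 bp before the end for the wider. These copies account for 4 of the 14 regions of 13C with a partner. The wild-type regions that came next fell outside the matching rule and differed in status. After the first pair, a region of 9065 bp held a knockout region of 3325 bp. After the later pair, a region of 8123 bp had no partner, and the nearest knockout region was 4.93 kb away. With the later copies of the 9 matches left out, the share of members with a partner was 10.1% (31 of 307), against 10.2%. Likenesses that fell outside the matching rule stayed in, so the part of all repeated stretches was not tested.

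Chains 12F and 12I were alike in reversed order on the near side of their knockout region, a likeness seen by eye in the values. In 12F, read towards higher positions, wild-type regions of 14551, 3114 and 2911 bp preceded the gap that the knockout region filled. In 12I, read towards lower positions, regions of 14401, 3112 and 2811 bp did so. The gaps between them were 2596 and 1942 bp in 12F and 2595 and 1942 bp in 12I. On the far side the knockout region extended 1236 bp into the next wild-type region in both, but that region was 3594 bp wide in 12F and 16965 bp in 12I. In 12F a gap of 3984 bp and a region of 9248 bp followed it. With that gap, the stretch of 12F from 23344084 to 23360909 was close in length to the 16965 bp region of 12I. In 12C the filled gap was of like size, 2839 bp, but the neighbouring regions differed from these, with a width of 967 bp next to the 2813 bp flank. Chain 12C was more like 12D there. Both open with a region of 1418 bp, and in 12D a region of 971 bp came before the 3663 bp region with a partner.

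**Figure D5:**
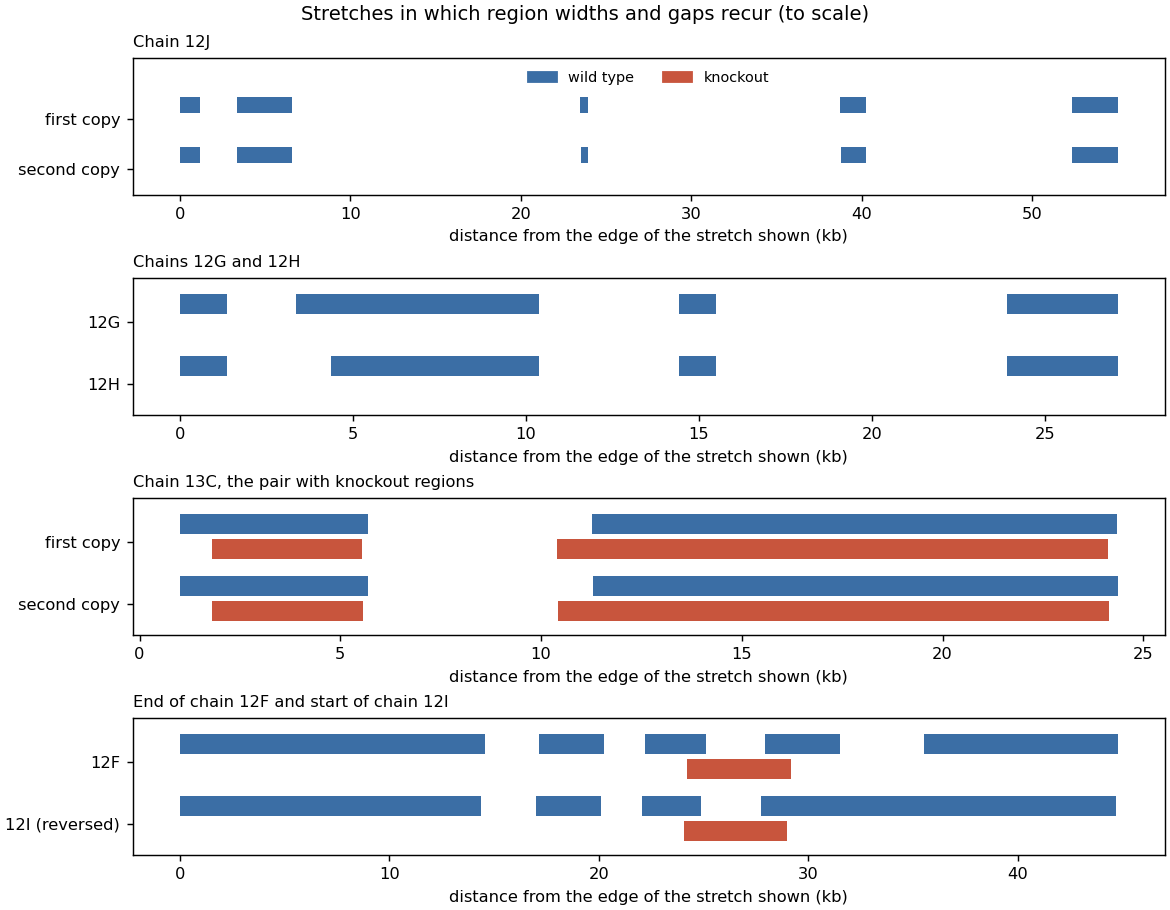
Stretches in which widths and gaps of regions recur, drawn to scale against the distance in kb from the edge of the stretch, with wild-type regions above and knockout regions below in each row. The 5 regions of chain 12J recur with none called in the knockout, and 12G and 12H differ in their second region. In the pair of 13C shown and in 12F and 12I (reversed) the knockout regions recur with the wild-type ones.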

How the data were processed

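H3K9me3 immunoprecipitation was sequenced for 1 wild-type and 1 KAP1 knockout thymocyte sample. Reads were aligned with Bowtie to mm9, per the submitters' processing notes; neither its version nor the region caller and whether input was used is given in the sources used here. The lists deposited by the authors hold only positions in base pairs, with no count or score. Starts were read as counted from 0 and are printed counted from 1. No mm9 genome or annotation was used here, so regions are named by position and no gene is assigned; a GRCm38 gene table was set aside because regions on 8 chromosomes lie past its last gene.

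Chains, partners (overlap of 1 base) and covered lengths were computed in Python 3.11.15 with pandas 2.3.3 and numpy 2.4.6, and Wilson 95% intervals with scipy 1.17.1. The intervals reflect counting error alone, as if regions were independent, although chained regions are not. The chain and partner steps were tested on simulated data: in 100 draws all 300 planted partners were found among 3748 regions and 0 others, and 100 of 100 planted sets of chains were returned. Other overlap rules, width filters, joining of neighbours and other chain limits were tried as alternatives. The members and settings were chosen with earlier results of these data known. Named by rule were the 10 chains with most wild-type regions (with ties), every chain with a knockout region, the 10 widest members of each list and the widest member without a partner on each chromosome; other chains were named after their values were seen.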

Additional observations from a re-analysis of the deposited data

How the results depend on the processing

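The share of chained regions with a partner, 10.2%, was 4.66% if a partner had to cover 50% of the region, 3.73% under 50% reciprocal overlap, 19.9% when a knockout region within 10 kb counted, 34.8% for a wild-type list cut to its widest 605 regions (46 in chains) and 7.31% without chain 13C. The share of chains that kept regions, 38.7%, was 22.6% with 50% cover, 22.6% with reciprocal overlap and 57.1% (4 of 7 chains) in the cut list. The ratio of knockout to wild-type bases, 0.134, was 0.141 for regions of at least 1 kb, 0.281 in the cut list, 0.107 after joining neighbours up to 10 kb apart, 0.135 and 0.127 with chain limits of 50 and 200 kb, 0.134 for chains of 5 or more, 0.0746 without 13C and 0.113 when only knockout bases inside wild-type regions counted. The share of unchained regions with a partner, 7.86%, was 4.0% for regions of at least 1 kb and 13.8% in the cut list. Of 30 shares under changed settings, 20 stayed within the interval of the share they replace and 10 did not; the 8 ratios have no interval and are given in full. The settings without 13C, with matched copies counted once and with knockout bases inside wild-type regions were added after the data were seen. Some settings leave fewer regions, and the cause of these shifts was not tested. No paired analysis was possible because there is a lone H3K9me3 library per genotype. No score was available for a stricter threshold, so width stood in for it. Read depth limits every value and is unknown.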

Other observations

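The knockout regions of chromosomes 12 and 13 that overlapped no wild-type region, 4 in all, lay outside the chains. On chromosome 12 they ran from 22864401 to 22866179 (1779 bp), from 32526283 to 32527383 (1101 bp) and from 86590654 to 86590949 (296 bp), and on chromosome 13 from 102797281 to 102797678 (398 bp). The widest knockout regions outside the chains, at 5593 bp from 17804292 to 17809884 on chromosome 12 and at 5204 bp from 120278958 to 120284161 on chromosome 13, each overlapped an unchained wild-type region.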
